A study of Mus musculus with 8 samples.

Results

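The respiratory chain and ATP synthase genes described here are the rows of the deposited mouse expression table whose symbols follow the naming patterns of complex I (Nduf), complex III (Uqcr), cytochrome c oxidase (Cox4 to Cox8) and ATP synthase (Atp5) subunits. The pattern matched 83 of 22744 rows. Of these, 78 encode subunits or tissue isoforms of them: 7 complex I core subunits, 28 complex I accessory subunits, 8 complex III subunits, 20 cytochrome c oxidase subunits and relatives, and 15 ATP synthase subunits. The cytochrome c oxidase group includes Ndufa4, first named as a complex I subunit, its relative Ndufa4l2, and Cox7a2l, which helps to join complexes III and IV. The other 5 rows share a name but are not subunits: Atp5s, Atp5sl (now Dmac2), Cox4nb (now Emc8), and the pseudogene rows Atp5l-ps1 and Atp5l2. The acyl carrier subunit gene Ndufab1 is outside the pattern.

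Complexes I to IV of the inner mitochondrial membrane pass electrons from nutrients to oxygen. Complexes I, III and IV pump protons as they do so, and ATP synthase uses the proton gradient to make ATP. Most subunits are encoded in the nucleus and expressed in nearly every cell, and a few catalytic ones are encoded in mitochondrial DNA. Several cytochrome c oxidase subunits come in tissue forms, among them the testis isoforms Cox6b2, Cox7b2 and Cox8c. Male germ cells change their source of energy as they move from spermatogonia through meiosis, and they replace a number of metabolic enzymes by germ cell isozymes on the way.

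RNA was sequenced from whole testes of C57BL/6 mice at postnatal day 8 (P8), in 3 Dmrt6 null and 3 wild-type libraries labelled as replicates. How the null allele was made is not given in the labels. DMRT6 is a DNA-binding protein of male germ cells and is listed in the table under the gene symbol Dmrtb1. Its binding was mapped by chromatin immunoprecipitation (ChIP) from wild-type adult testis labelled as C57BL/6, Mixed, with 1 library precipitated by a rabbit polyclonal antibody raised to the C-terminal part of the protein and 1 input library. The RNA and the binding data therefore differ in age.

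The null libraries held 26.2 to 27.4 M reads in the table and the wild-type libraries 23.8 to 29.0 M. Dmrtb1 had 14, 25 and 26 reads in the null libraries and 194, 510 and 254 in the wild-type libraries, with no overlap. Markers of Sertoli cells, the somatic cells of the tubules, summed to 1760 to 2277 CPM (reads scaled to the size of the library) in null and 2000 to 2166 CPM in wild type. Clu carries most of that sum, and it was highest in null replicate 1; of the 5 Sertoli markers tested, 4 (Sox9, Wt1, Gata4 and Amh) were highest in null replicate 3. Those of spermatogonia summed to 817 to 1090 CPM in null and 739 to 879 CPM in wild type. Markers of pachytene spermatocytes and spermatids summed to 13.7 to 19.2 CPM in null and 17.2 to 22.1 in wild type, and 1 of the 9 in the table passed the filter on low values. Null replicate 3 stood apart: on the first principal component of all tested genes, with 44.8% of the variance, its score was 54.3, against scores of -20.2 to 1.68 for the other 5. The summary of each group and the main named genes are therefore also given without it. The labels do not say whether the replicates came from separate animals, and a p-value measures the spread between these libraries only.

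All levels below are log2 CPM, which are scaled to the library and not to transcript length, so no order of abundance between genes is drawn from them. A gene was tested if its mean over the 6 libraries was at least 0, which kept 81 of the 83 rows and 16634 genes in all; the muscle isoforms Cox6a2 and Cox8b fell below it. In whole testis, fewer cells of a type and less RNA per cell cannot be told apart.

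The testis isoforms were transcribed at P8 in both genotypes. Cox6b2 (chromosome 7, 4703396 to 4704696, minus strand, mm9) encodes the testis form of a subunit on the intermembrane side of cytochrome c oxidase. It was at 3.64, 3.86 and 3.51 in null replicates 1, 2 and 3 and at 4.0, 3.69 and 3.98 in wild-type replicates 1, 2 and 3, from 293 to 400 reads in null and 378 to 434 in wild type. The 2 genotypes overlapped, with null replicate 2 above wild-type replicate 2. Cox7b2 (chromosome 5, 71834063 to 71939444, minus strand, mm9), the testis form of a small membrane subunit, was at 3.26, 3.55 and 3.41 in null and 3.53, 3.43 and 3.56 in wild type, with 251 to 324 reads in null and 275 to 324 in wild type. Its genotypes overlapped as well. Cox8c (chromosome 12, 104137516 to 104138744, plus strand, mm9), the testis form of subunit VIII, had 22, 42 and 32 reads in null and 41, 48 and 43 in wild type. On the log2 CPM scale it was at -0.24, 0.61 and 0.32 in null and 0.79, 0.72 and 0.66 in wild type, so every null library was below every wild-type library, with null replicate 1 farthest away.

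None of the 3 testis isoforms passed the limma test, with Benjamini-Hochberg adjustment over all tested genes. The difference in log2 CPM, null minus wild type, was -0.22 (SE 0.16, adjusted p = 0.755) for Cox6b2, -0.10 (SE 0.15, adjusted p = 0.820) for Cox7b2 and -0.49 (SE 0.29, adjusted p = 0.755) for Cox8c. Without null replicate 3 the differences were -0.15, -0.10 and -0.54. For Cox8c the difference was -0.25 without null replicate 1, its lowest library, and -0.27 with 1 CPM added before the log.

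The somatic partners were read in the same way. Cox6b1, the widely expressed partner of Cox6b2, was at 6.50, 6.63 and 6.20 in null and 6.70, 6.63 and 6.80 in wild type. Cox7b was at 5.58, 5.76 and 5.24 in null and 5.60, 5.65 and 5.85 in wild type. Cox8a was at 6.34, 6.34 and 6.05 in null and 6.46, 6.19 and 6.48 in wild type. For each of the 3 somatic partners null replicate 3 was the lowest library, which held for Cox6b2 but for neither Cox7b2 nor Cox8c.

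Because the scale of a library cancels in the difference between an isoform and its partner, that difference was compared between genotypes for 6 pairs, with exact two-sided permutation tests of 3 libraries against 3, which cannot give a p below 0.1. Cox6b2 minus Cox6b1 was -2.78 ± 0.08 in null and -2.82 ± 0.12 in wild type (SD, n = 3 each; exact permutation p = 0.6), a gap of 0.04, and of 0.0017 without null replicate 3. Cox7b2 minus Cox7b was -2.12 ± 0.26 in null and -2.20 ± 0.11 in wild type (SD, n = 3 each; exact permutation p = 0.8). The sign of that small gap between genotypes, 0.08, turned to -0.07 without null replicate 3. Cox8c minus Cox8a was -6.01 ± 0.50 in null and -5.66 ± 0.18 in wild type (SD, n = 3 each; exact permutation p = 0.4), a gap of -0.36 that was -0.50 without null replicate 3 and -0.07 without null replicate 1. After adjustment over the 6 pairs these p-values were all 0.8.

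The isoforms of other tissues were at low counts. Cox4i2, the form known from lung and from low oxygen, had 31, 59 and 37 reads in null and 18, 40 and 48 in wild type, a difference of 0.33 (SE 0.38) with overlapping genotypes, and 0.38 without null replicate 3. Its partner Cox4i1 was at 7.84, 7.86 and 7.57 in null and 7.95, 7.83 and 7.88 in wild type. Cox7a1, a heart and skeletal muscle form, had 154, 146 and 103 reads in null and 123, 159 and 173 in wild type, and its levels overlapped. Cox6a2, another heart and skeletal muscle form, had 12, 19 and 15 reads in null and 20, 24 and 38 in wild type. Its difference from Cox6a1 was -7.46 ± 0.41 in null and -6.83 ± 0.35 in wild type (SD, n = 3 each), where the exact permutation p was 0.1, the smallest this design can give, and 0.6 after adjustment; the gap of -0.63 was -0.69 without null replicate 3. Cox8b, the third muscle form, had 2, 0 and 0 reads in null and 4, 1 and 12 in wild type; at these depths a gene at 0 reads may hold up to 3, or 0.103 to 0.126 CPM. Striated muscle markers summed to 20.3 to 28.6 CPM in null and 17.0 to 25.6 in wild type, adipocyte markers to 11.1 to 24.2 CPM in null and 19.3 to 97.0 CPM in wild type, and brown fat markers to 28.2 to 46.5 CPM in null and 30.3 to 45.3 CPM in wild type. The part of such cells in the counts of these isoforms was not tested.

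**Figure D1:**
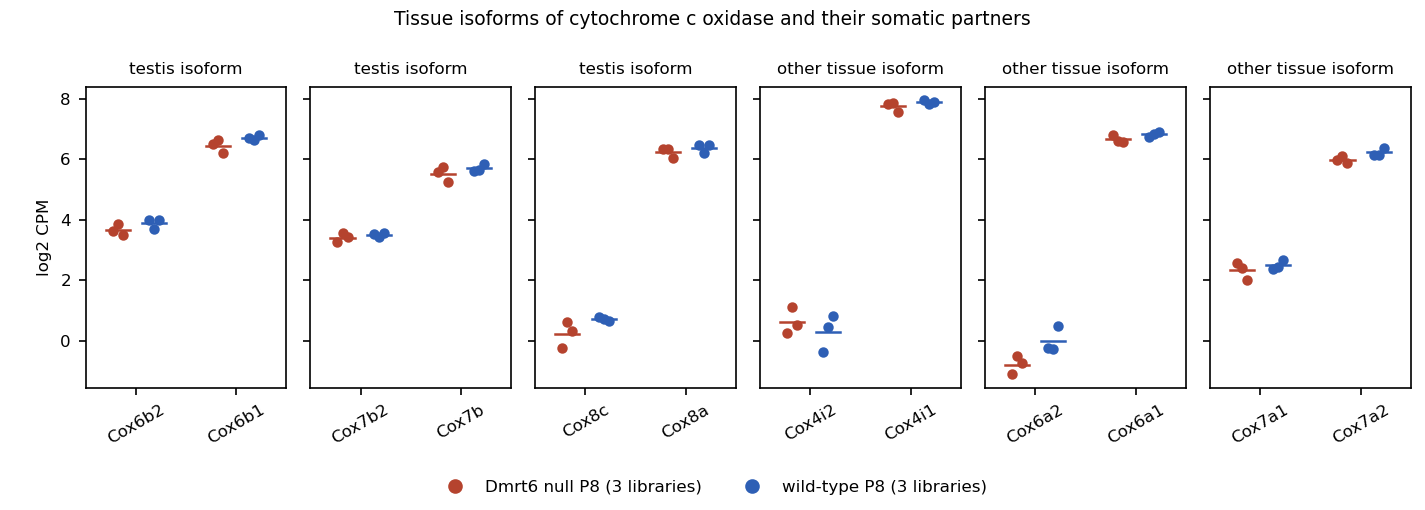
Level in log2 CPM (vertical axis) of 6 tissue isoforms of cytochrome c oxidase and their somatic partners, 1 panel a pair. Points are libraries, red for Dmrt6 null and blue for wild type (n = 3 each), and bars are group means; the genotypes overlap for Cox6b2 and Cox7b2, whereas the 3 null libraries are below the wild-type libraries for Cox8c and Cox6a2.

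The promoters of the testis isoforms Cox7b2 and Cox6b2 and of their somatic partners are printed here, to set isoform and partner side by side. Each runs from 250 bases before to 50 bases after the RefSeq start of the gene (GRCm38.p6), 5′ to 3′ on the gene's strand. The regions are chr5:71548156-71548455 (minus strand) for Cox7b2, chr7:4753045-4753344 (minus strand) for Cox6b2, chrX:106015450-106015749 (plus strand) for Cox7b and chr7:30626065-30626364 (minus strand) for Cox6b1. Capitals mark matches on either strand to 6 short motifs that are spelled out with the motif counts.
Cox7b2: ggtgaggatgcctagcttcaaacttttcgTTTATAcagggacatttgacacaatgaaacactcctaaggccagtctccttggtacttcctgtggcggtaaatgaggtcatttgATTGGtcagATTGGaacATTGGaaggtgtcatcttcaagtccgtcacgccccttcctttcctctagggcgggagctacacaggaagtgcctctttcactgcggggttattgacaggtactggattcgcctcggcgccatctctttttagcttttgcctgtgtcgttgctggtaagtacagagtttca
Cox6b2: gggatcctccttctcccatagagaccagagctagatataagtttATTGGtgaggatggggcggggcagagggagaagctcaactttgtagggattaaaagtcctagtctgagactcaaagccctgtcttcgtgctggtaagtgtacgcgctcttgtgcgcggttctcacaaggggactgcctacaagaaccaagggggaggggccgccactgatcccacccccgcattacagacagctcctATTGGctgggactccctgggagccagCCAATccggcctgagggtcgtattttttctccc
Cox7b: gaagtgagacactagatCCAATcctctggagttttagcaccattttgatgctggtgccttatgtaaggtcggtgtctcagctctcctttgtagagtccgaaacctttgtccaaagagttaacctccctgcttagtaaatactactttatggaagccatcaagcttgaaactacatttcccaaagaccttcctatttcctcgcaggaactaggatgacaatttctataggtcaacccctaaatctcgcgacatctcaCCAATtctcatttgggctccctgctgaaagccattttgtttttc
Cox6b1: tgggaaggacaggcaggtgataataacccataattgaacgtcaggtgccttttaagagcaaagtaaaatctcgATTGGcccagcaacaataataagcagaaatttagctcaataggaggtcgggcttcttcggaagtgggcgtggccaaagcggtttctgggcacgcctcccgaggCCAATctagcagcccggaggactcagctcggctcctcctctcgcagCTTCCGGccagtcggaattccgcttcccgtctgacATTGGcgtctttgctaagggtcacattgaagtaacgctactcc
Cox7b2 carried 3 CCAAT matches 137, 128 and 120 bases before its start and a TATAAA match 221 bases before it, all in reverse orientation. Cox6b2 had CCAAT matches 206 and 9 bases before its start and another 17 bases after it. Cox7b had 2 CCAAT matches. Cox6b1 had 3, and also an ETS match (read CTTCCGG on its own strand) 28 bases before its start. Neither Cox7b2 nor Cox6b2 held an NRF1 or an ETS match in this window.

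Across the members, 2 libraries stood at opposite ends. The 81 tested rows were lowest in null replicate 3 in 70 cases and highest in wild-type replicate 3 in 61 cases, whereas over all tested genes 34.0% were lowest in null replicate 3 and 17.3% highest in wild-type replicate 3. Their median deviation from each gene's own mean was -0.03, 0.02 and -0.27 in null replicates 1, 2 and 3 and 0.03, 0.04 and 0.20 in wild-type replicates 1, 2 and 3, on the log2 scale. In the same libraries the median over all tested genes lay between -0.02 and -0.00. Summed over the members, the reads came to 6873, 6929 and 5974 CPM in null and 7096, 7051 and 7636 CPM in wild type.

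Every complex had this profile. In null replicate 3 the median deviation was -0.14 for complex I core subunits, -0.29 for complex I accessory subunits, -0.27 for complex III, -0.26 for cytochrome c oxidase and -0.28 for ATP synthase. In wild-type replicate 3 it was 0.12, 0.21, 0.19, 0.19 and 0.22 for the same groups. The 11 rows that were not lowest in null replicate 3 were Cox8c, Cox7b2, Cox4i2, Ndufa4l2, Cox5a, Uqcrc1, Ndufv1, Ndufb7, Atp5a1, Atp5d and Cox4nb. Of these, Uqcrc1, a core protein of complex III, was at 6.79, 6.57 and 6.94 in null and 6.79, 6.76 and 6.50 in wild type, with its highest level in null replicate 3 and its lowest in wild-type replicate 3. Atp5d, the delta subunit of the ATP synthase stalk, was at 6.21, 5.95 and 6.30 in null and 6.09, 6.21 and 5.98 in wild type, highest in null replicate 3 and lowest in null replicate 2.

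**Figure D2:**
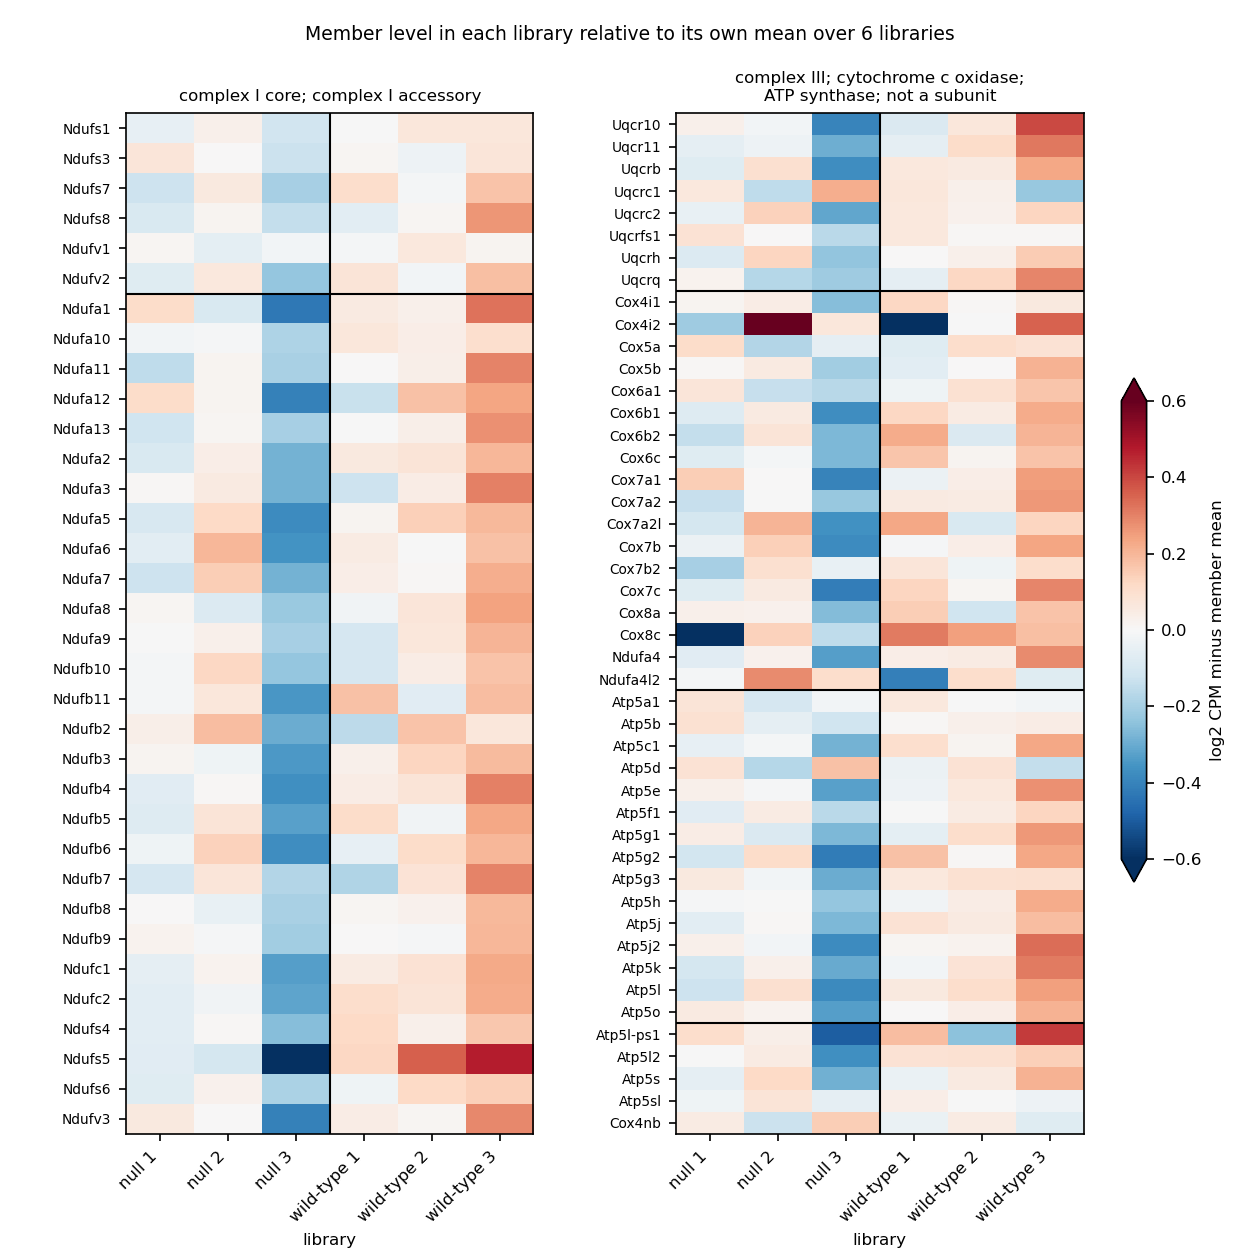
Level of 80 tested members in each library, as log2 CPM minus that member's mean over the 6 libraries (colour; values beyond 0.6 in either direction take the end colours), with rows ordered by complex and null libraries left of wild-type libraries. Null replicate 3 is the lowest library in 69 of the 80 rows drawn, and wild-type replicate 3 is the highest in 60.

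No member passed the limma test between genotypes: 0 of 81 had an adjusted p below 0.05, with 0.00601% of all tested genes called, which is 1 gene. The members' adjusted p-values ran from 0.755 to 0.988. At an unadjusted p below 0.05 there were 2 members lower in null and 0 higher, against 1.85% and 1.63% of all tested genes. Leaving out null replicate 2 gave 16 members and 2547 of all tested genes with such a p, and leaving out wild-type replicate 3 gave 0 members. Without null replicate 3, limma called 0 members and 0.0301% of all tested genes, and 1 member was lower in null at an unadjusted p below 0.05 (1.6% of all tested genes) and 0 higher (1.53%). limma's voom on the recovered reads also called 0 members, with 1 at an unadjusted p below 0.05.

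The estimates nevertheless lay mostly on the same side. In null, 76 members were lower and 5 higher by sign, where 48.3% of all tested genes were lower. The median difference was -0.17, a level of 0.887 times wild type, beside a median of 0.01 for all tested genes. Without null replicate 3 it was -0.08, or 0.943 times wild type, with 74 of 81 lower. Without wild-type replicate 3 it was -0.12, with 77 lower. Each of these fits keeps the other of the 2 libraries at the opposite ends. In the remaining libraries the members' median deviation was -0.03 and 0.02 in null replicates 1 and 2. It was 0.03 and 0.04 in wild-type replicates 1 and 2. Members that vary together over the libraries are not separate observations of genotype. The members' median SD within a genotype was 0.167 in null and 0.115 in wild type, about the size of the median difference.

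In 17 of 81 members all 3 null libraries were below all 3 wild-type libraries, which 6.02% of all tested genes did, and in 0 members were they all above, which 5.06% did. Complex I accessory subunits gave 9 of these 17 (Ndufs5, Ndufc2, Ndufb4, Ndufs4, Ndufa2, Ndufc1, Ndufb3, Ndufa10 and Ndufb8). Cytochrome c oxidase gave 4 (Cox6c, Cox7a2, Ndufa4 and Cox8c), ATP synthase gave 3 (Atp5c1, Atp5j and Atp5g3), and the pseudogene row Atp5l2 was the other. Complex I core subunits and complex III gave 0. The same 17 members were those with null replicates 1 and 2 both below every wild-type library, which 8.4% of all tested genes were. These differences are small: leaving aside Ndufs5 and Cox8c, they ran between -0.14 and -0.28.

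Red blood cell markers moved with the same libraries. Their sum was 717 to 1255 CPM in null, lowest in null replicate 3, and 1477 to 1776 CPM in wild type, highest in wild-type replicate 3, and all 5 markers were lowest in null replicate 3. The sum of spermatogonial markers was highest in null replicate 3, at 1090 CPM, and lowest in wild-type replicate 3, at 739 CPM. Single markers did not all follow the sum. Ddx4 was highest in wild-type replicate 2 (8.06) and lowest in wild-type replicate 1 (7.81), and Zbtb16 was lowest in wild-type replicate 1 (5.35). The Sertoli marker Sox9 was at 5.86, 5.32 and 6.81 in null and 5.45, 5.60 and 5.46 in wild type. Amh was at 6.67, 5.54 and 7.32 in null and 6.65, 6.56 and 6.14 in wild type. Both were highest in null replicate 3, as were 4 of the 5 Sertoli markers. The other, Clu, was at 10.84, 10.51 and 10.57 in null and 10.68, 10.63 and 10.83 in wild type. The part of cell composition in the members' values was not tested.

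Complex I, the NADH dehydrogenase, was lower in null by sign for all 35 of its members. Its 7 core subunits, which hold the flavin and the iron-sulphur clusters, had a median difference of -0.11, and -0.06 without null replicate 3, when 6 of 7 were lower. Ndufs1, the largest of them, was at 7.05, 7.13 and 6.99 in null and 7.10, 7.17 and 7.17 in wild type. Its groups overlapped. Ndufs7 differed by -0.18 (SE 0.12), Ndufs8 by -0.14 (SE 0.12) and Ndufs3 by -0.04 (SE 0.10). Without null replicate 3 these were -0.12, -0.11 and 0.02, and Ndufs1, at -0.09 (SE 0.09) with all libraries, was at -0.06.

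The 28 accessory subunits, which surround the core, had a median difference of -0.20, and -0.10 without null replicate 3, when 26 were lower. Ndufs5 (chromosome 4, 123389953 to 123395445, minus strand, mm9), an accessory subunit of the intermembrane side, was at 4.44, 4.40 and 3.73 in null and 4.64, 4.87 and 4.98 in wild type. Its reads were 571, 584 and 342 in null and 592, 854 and 867 in wild type. Every null library was below every wild-type library, and null replicate 3 was the lowest by far. Ndufs5 had the most negative difference of the members, -0.64 (SE 0.21, adjusted p = 0.755 in limma), or 0.644 times wild type, and -0.41 (SE 0.13) without null replicate 3. Ndufc2, an accessory subunit of the membrane arm, was at 5.88, 5.93 and 5.63 in null and 6.05, 6.02 and 6.17 in wild type, a difference of -0.27 (SE 0.12, adjusted p = 0.755 in limma), and -0.18 without null replicate 3. Of the accessory subunits with the lowest log2 CPM, Ndufb2 differed by -0.05 (SE 0.17) and Ndufa12 by -0.19 (SE 0.18), which were 0.08 and -0.03 without null replicate 3.

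Complex III, which passes electrons from ubiquinol to cytochrome c, had 7 of 8 subunits lower by sign, a median of -0.19, and -0.07 without null replicate 3. The core protein Uqcrc2 was at 7.50, 7.68 and 7.23 in null and 7.60, 7.57 and 7.67 in wild type, with overlap. Uqcrh, the hinge protein, differed by -0.13 (SE 0.12), and the small subunits Uqcr11 and Uqcrq by -0.25 (SE 0.14) and -0.24 (SE 0.13). Uqcrc2 differed by -0.15 (SE 0.12). Without null replicate 3 the values for Uqcrh, Uqcr11, Uqcrq and Uqcrc2 were -0.04, -0.17, -0.20 and -0.03. Uqcrc1 was the 1 subunit higher in null by sign, at 0.09 (SE 0.13) and -0.0024 without null replicate 3.

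Of the 18 tested cytochrome c oxidase rows 16 were lower by sign, with a median of -0.17, and -0.09 without null replicate 3. Cox6c, a small membrane subunit, was at 6.52, 6.58 and 6.32 in null and 6.76, 6.61 and 6.76 in wild type, a difference of -0.24 (SE 0.11, adjusted p = 0.755 in limma). Cox7a2, the liver and general form of subunit VIIa, was at 5.96, 6.10 and 5.87 in null and 6.15, 6.15 and 6.36 in wild type, with the same difference and error. In both genes the groups did not overlap. Cox6b1 differed by -0.27 (SE 0.13) and Cox7a2l by -0.18 (SE 0.16). Without null replicate 3 the values for Cox6c, Cox7a2, Cox6b1 and Cox7a2l were -0.16, -0.19, -0.15 and -0.04. The 2 rows higher by sign were Cox4i2 and Ndufa4l2, a gene induced by low oxygen, which differed by 0.25 (SE 0.25), and 0.26 without null replicate 3, with 48, 62 and 51 reads in null and 33, 58 and 48 in wild type.

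ATP synthase had 14 of 15 subunits lower by sign, with a median of -0.20, and -0.09 without null replicate 3. The alpha and beta subunits of its catalytic head differed by less than 1 SE. Atp5b, the beta subunit, was at 9.58, 9.43 and 9.37 in null and 9.49, 9.52 and 9.53 in wild type, and Atp5a1, the alpha subunit, at 9.14, 8.97 and 9.05 in null and 9.13, 9.07 and 9.05 in wild type. These differed by -0.05 (SE 0.09) and -0.03 (SE 0.09), and by -0.0090 and -0.03 without null replicate 3. The 3 genes for the same c subunit of the membrane ring, Atp5g1, Atp5g2 and Atp5g3, differed by -0.21 (SE 0.13), -0.28 (SE 0.15) and -0.17 (SE 0.11), and by -0.12, -0.14 and -0.06 without null replicate 3. Atp5g3 was at 7.40, 7.33 and 7.04 in null and 7.41, 7.43 and 7.44 in wild type, where the gap between the nearest libraries was narrow and null replicate 3 lay apart. Atp5k, the small e subunit, differed by -0.25 (SE 0.14), and by -0.16 without null replicate 3. Atp5d, the 1 subunit higher by sign, differed by 0.06 (SE 0.12), and by -0.01 without it. Among the rows that are not subunits, Cox4nb differed by 0.04 (SE 0.11) and Atp5s by -0.15 (SE 0.16), and by -0.02 and -0.04 without null replicate 3. Atp5l-ps1 and Atp5l2, at -0.24 (SE 0.25) and -0.21 (SE 0.14), and -0.05 and -0.08 without that library, can share reads with their parent genes, and their values are uncertain for that reason.

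**Figure D3:**
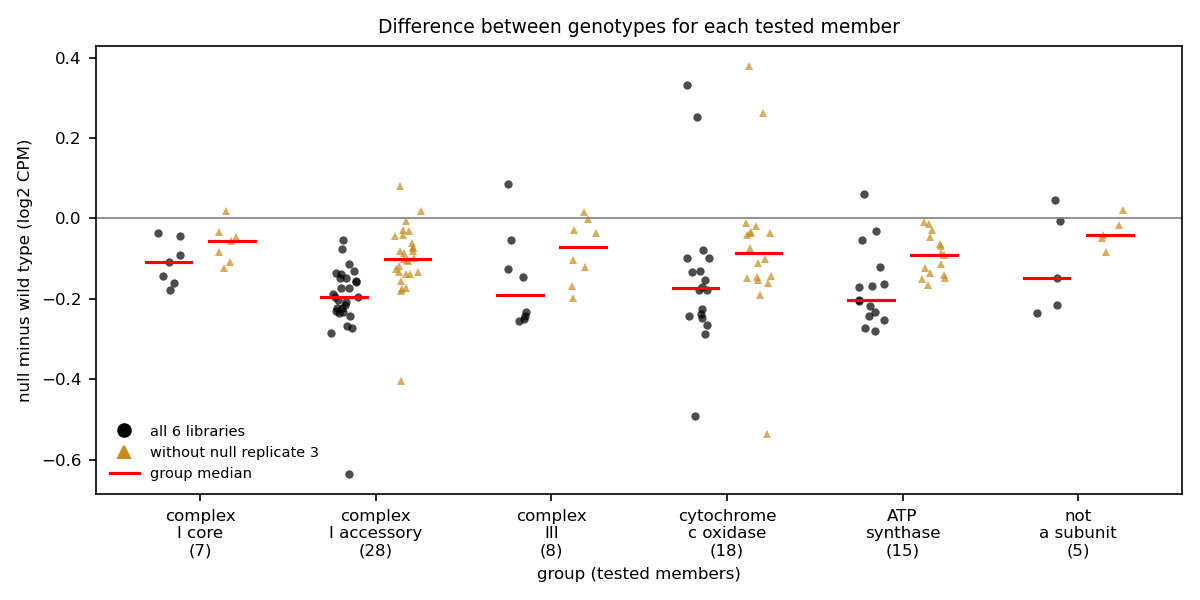
Difference in log2 CPM, null minus wild type (vertical axis), for each tested member by complex. Black circles are fits of all 6 libraries, orange triangles the same without null replicate 3, and red bars group medians, which are between -0.20 and -0.11 with all libraries and between -0.10 and -0.04 without that library.

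Other large gene families were read for comparison. Of 79 tested mitochondrial ribosomal protein rows 70 were lower in null by sign, with a median of -0.11 (-0.06 without null replicate 3). Of these 79 rows, 54 were lowest in null replicate 3 and 54 were highest in wild-type replicate 3. Of 38 tested proteasome subunit rows 34 were lower, with a median of -0.15 (-0.08 without null replicate 3), 30 were lowest in null replicate 3 and 25 highest in wild-type replicate 3. Of 208 tested cytosolic ribosomal protein rows 190 were lower, with a median of -0.18 (-0.04 without null replicate 3), and 185 were lowest in null replicate 3 but 41 highest in wild-type replicate 3. Over all tested genes 34.0% were lowest in null replicate 3 and 17.3% highest in wild-type replicate 3. Non-overlapping null libraries below wild type were counted in 10 of 79, 11 of 38 and 3 of 208 rows of these families. The same held for 17 of 81 members and for 6.02% of all tested genes. The differences between the families were not tested.

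Genes of the pathway outside the pattern also gave 0 calls in limma. Complex II and cytochrome c genes were lower by sign in 5 of 6 cases, with a median of -0.15 (-0.07 without null replicate 3): the somatic cytochrome c gene Cycs differed by -0.21 (SE 0.15), the complex II anchor Sdhd by -0.18 (SE 0.12), and the testis cytochrome c gene Cyct by -0.23 (SE 0.22). Without that library these were -0.11, -0.06 and -0.29. Assembly factors, which build the complexes but are not part of them, were lower by sign in 19 of 29 cases, with a median of -0.05, which was 0.02 without null replicate 3. Cox19, a factor of copper handling, differed by -0.19 (SE 0.12), the haem A synthesis gene Cox10 by 0.24 (SE 0.17) and the copper carrier Sco1 by 0.17 (SE 0.13), which were -0.12, 0.11 and 0.19 without it. Regulators of mitochondrial genes were lower in 6 of 12 cases, with a median of 0.01, and of 0.07 without null replicate 3. Among them Polrmt, the mitochondrial RNA polymerase, differed by 0.53 (SE 0.29), and 0.18 without null replicate 3, the coactivator Pprc1 by 0.62 (SE 0.35), and 0.16 without that library, and the transcription factor Yy1 by 0.31 (SE 0.18), and 0.13 without it. Markers of mitochondrial mass and carriers were lower by sign in 9 of 10 cases, with a median of -0.12 (-0.06 without null replicate 3), and Atpif1, an inhibitor of ATP synthase, differed by -0.28 (SE 0.14), and by -0.16 without it. At an unadjusted p below 0.05 these lists gave 0 genes in either direction. The subunits encoded in mitochondrial DNA were not analysed here.

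Germ cell isozymes of other pathways gave a setting for the testis isoforms. The germ cell ADP/ATP carrier Slc25a31 had 3082, 3884 and 2993 reads in null and 3045, 4075 and 3708 in wild type. Cyct had 256, 427 and 358 reads in null and 438, 390 and 381 in wild type, and Pdha2, the germ cell pyruvate dehydrogenase subunit, 230, 240 and 208 in null and 226, 302 and 334 in wild type. Cyct is itself among the 9 pachytene and spermatid markers, and the others had 34 reads or fewer in each library. Of these, Ldhc, the germ cell lactate dehydrogenase, had 16, 34 and 21 reads in null and 14, 28 and 28 in wild type. Pgk2, the late germ cell phosphoglycerate kinase, had 4, 6 and 4 reads in null and 4, 10 and 4 in wild type, and the protamine gene Prm1 had 4, 4 and 1 in null and 3, 4 and 2 in wild type. Cox6b2 and Cox7b2 had 251 reads or more in every library, and Cox8c had 22, 42 and 32 in null and 41, 48 and 43 in wild type. Reads are not scaled to transcript length, so these counts do not order the genes by abundance. Of the other listed isozymes, Aldoart1 had 553, 489 and 460 reads in null and 437, 605 and 579 in wild type. Gapdhs had 144, 174 and 129 in null and 132, 163 and 153 in wild type.

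DMRT6 peaks were read around the 5′ end of each gene as the table gives it (mm9), which is 1 end per gene, so further starts and the position within exons or introns were not resolved. The authors' list has 14862 peaks from the single ChIP library, so the values have no replicate, and their score, whose scale is not stated, is used as given. A peak middle lay within 10 kb of the 5′ end in 30 of 83 members. Among tested rows this was 29 of 81 (35.8%), against 31.2% of all tested genes. Within 1 kb it was 18 of 81 (22.2%), against 16.0%. Many members are highly expressed, and in the fifth of genes with the highest log2 CPM the shares were 10 of 26 (38.5%) for members against 38.4% for all at 10 kb, and 8 of 26 (30.8%) against 24.9% at 1 kb. The 10 kb share of members is thus close to the background. Mitochondrial ribosomal protein, proteasome and cytosolic ribosomal protein rows had a peak within 1 kb in 25.3%, 28.9% and 9.62% of tested rows.

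Within 1 kb, the peaks fell at 5 of 7 complex I core genes, 4 of 28 complex I accessory genes, 1 of 8 complex III genes, 5 of 20 cytochrome c oxidase genes, 3 of 15 ATP synthase genes and 0 of 5 others. The core genes included Ndufs3 (peak middle 92 bp downstream of the 5′ end, score 118.95), Ndufs7 (103 bp downstream, 138.59), Ndufv1 (136 bp downstream, 87.32) and Ndufs8 (275 bp upstream, 116.75). In all, 11 members had a peak middle within 150 bp. For 4 of the 18, the 5′ end of another gene was closer to the peak: Kbtbd4 beside Ndufs3, Zmat5 beside Uqcr10, Phf14 beside Ndufa4 and Rbm10 beside Ndufb11.

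Among the testis isoforms, Cox7b2 had a peak at its 5′ end (chr5:71939390-71939505, middle 4 bp upstream, score 105.77) and another 196 bp upstream (chr5:71939573-71939706, score 87.07), while the next gene's 5′ end, that of Gabra4, was 110103 bp away. Its difference between genotypes at P8, given above, was -0.10. Cox6b2 had no peak within 10 kb; the nearest was 13.2 kb downstream of its 5′ end and 212 bp from that of Suv420h2. Cox8c had 1 peak, 6324 bp upstream, of score 57.93, near the lowest score in the list, 50.02. Of the somatic partners, Cox6b1 had the highest-scoring peak within 10 kb of any member (519.35), 5396 bp upstream, and Cox7b, Cox8a and Cox4i1 had none within 10 kb. Cox6a1 had 1 of score 176.87 at 7724 bp downstream of its 5′ end. That peak was past the far end of the gene, which spans 3340 bp, and 32 bp from the 5′ end of Triap1. The muscle isoforms Cox7a1 and Cox6a2 had peaks 932 and 2330 bp upstream, of scores 106.4 and 80.72.

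The highest scores within 1 kb were at Ndufb11, an accessory subunit of complex I (356.2, 904 bp downstream), Atp5g3 (chr2:73749297-73749675, 350.8, 103 bp upstream) and Cox7a2 (chr9:79607388-79607749, 259.11, 92 bp downstream). Of the 18 members with a peak within 1 kb, 5 (Atp5g3, Cox7a2, Ndufa10, Ndufa4 and Ndufb3) were among the 17 of 81 without overlap between genotypes, and Ndufb11 was not. The median score of the 44 distinct peaks within 10 kb was 94.25, beside 94.71 for all peaks, and 7 of the 44 were over 200.

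**Figure D4:**
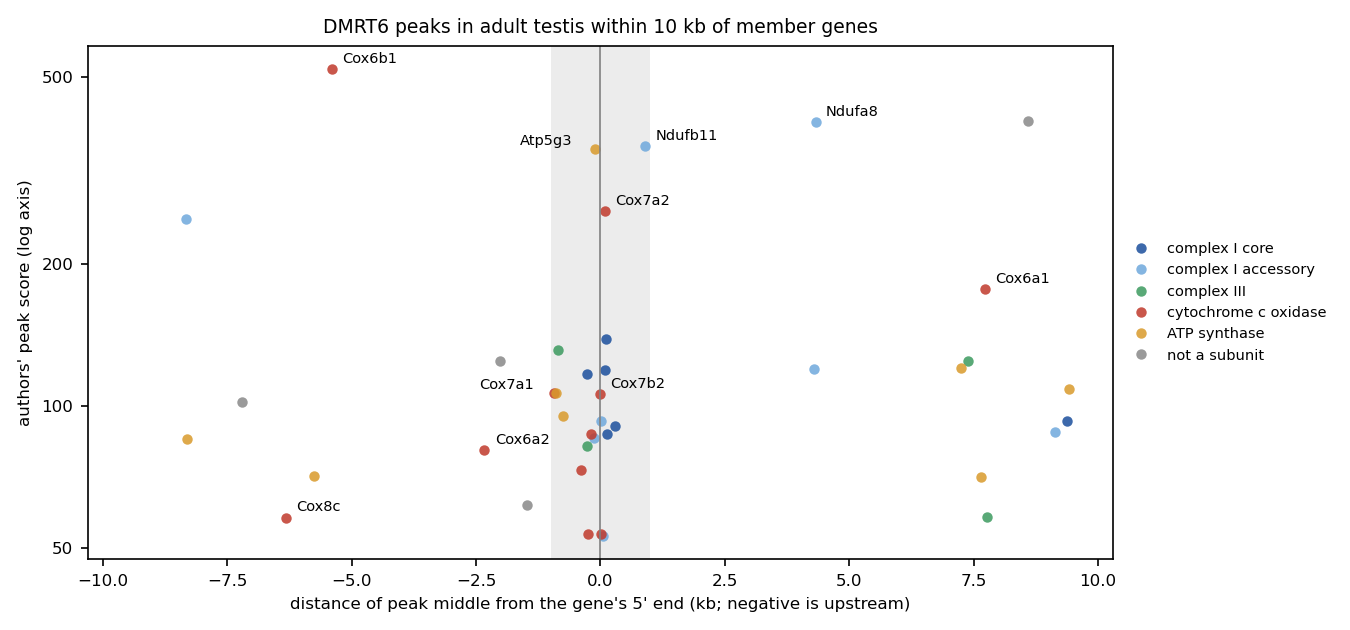
Peaks within 10 kb of a member, by the distance of the peak middle from the gene's 5′ end in kb (horizontal axis, negative upstream) and the authors' score (vertical log axis), coloured by complex. The grey band spans 1 kb to either side; Atp5g3, Cox7a2 and Cox7b2 have peaks close to the 5′ end, and the highest score, 519.35, is 5396 bp upstream of Cox6b1.

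The RefSeq promoters of Cox7a2 and Atp5g3, whose peaks within 1 kb had scores of 259.11 and 350.8, are printed for comparison with those of the isoforms. They span chr9:79759804-79760103 and chr2:73911277-73911576 (GRCm38.p6, both on the minus strand), with capitals for motif matches as above. Peaks and promoters are in different builds and were not laid over each other.
Cox7a2: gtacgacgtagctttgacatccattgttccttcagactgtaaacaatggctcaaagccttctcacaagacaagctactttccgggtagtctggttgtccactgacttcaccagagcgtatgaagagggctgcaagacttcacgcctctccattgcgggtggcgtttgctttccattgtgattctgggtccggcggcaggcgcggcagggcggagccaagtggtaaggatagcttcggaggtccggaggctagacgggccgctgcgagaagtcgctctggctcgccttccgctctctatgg
Atp5g3: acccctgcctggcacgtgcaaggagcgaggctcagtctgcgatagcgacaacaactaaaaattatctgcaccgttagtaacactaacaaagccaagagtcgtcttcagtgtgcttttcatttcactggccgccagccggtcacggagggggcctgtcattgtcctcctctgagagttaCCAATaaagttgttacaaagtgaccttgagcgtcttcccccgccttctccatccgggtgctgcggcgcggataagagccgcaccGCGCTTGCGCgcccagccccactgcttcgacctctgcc
Cox7a2 had no match to any of the 6 motifs and so no capitals. Atp5g3 had an NRF1 match, GCGCTTGCGC, beginning 12 bases after its start and a CCAAT match 72 bases before it.

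RefSeq promoters were matched for 66 of the 83 members, and their median GC content was 57%, against 52.7% over 32851 promoters. The 6 motifs, each read on both strands, were those of NRF1 (GCGCA, then any base, then GCGC) and ETS factors (CCGGAAG), both known at promoters of respiratory genes, the CCAAT box (CCAAT), the cAMP response element (TGACGTCA), the DMRT core (ACATTGT) and the TATA box (TATAAA). An NRF1 match stood in 15 of 66 member promoters (22.7%), against 5.19% of 27025 genes, and an ETS match in 14 (21.2%) against 9.93%. CCAAT stood in 29 (43.9%) against 41.1%, TGACGTCA in 4 (6.06%) against 2.03%, ACATTGT in 4 (6.06%) against 3.41% and TATAAA in 7 (10.6%) against 15.7%. These shares are descriptions of letters, and the part of GC content in them was not tested.

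An NRF1 or ETS match was in 26 promoters, and Atp5h, Atp5k and Cox6a1 had both. Of the 17 matched members with a peak within 1 kb, 3 had an NRF1 match (Atp5g2, Atp5g3 and Ndufa6), 2 an ETS match (Ndufs3 and Ndufs8) and 1 the DMRT core letters (Uqcr10). Of the 49 without such a peak, 12 had an NRF1 match, 12 an ETS match and 3 the DMRT core letters. Ndufs5, the member with the most negative difference, had an NRF1 match and no peak within 10 kb.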

How the data were processed

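The expression values are log2 CPM per Ensembl gene, deposited by the authors in 1 table. Per the submitters' processing notes the build was mm9, and the tools were Picard, Bowtie2, STAR 2.3.0e and edgeR, in no stated roles. How reads were counted per gene, and whether by strand, is not given in the sources used here, so overlapping antisense genes cannot be told apart. The values rise in steps of 1 read, and whole reads were recovered for 100% of values at a tolerance of 1e-06. Peaks, each with a score, are as deposited by the authors; MACS 1.4 is known from the file's name only, and both its libraries are of unknown depth. Genes with a mean log2 CPM of at least 0 were fitted together with limma-trend (limma 3.58.1, R 4.3.3), genotype as the only term, Benjamini-Hochberg adjustment, threshold 0.05, no further pseudocount. The fit was tested on simulated data. Isoform pairs had exact permutation tests (scipy 1.17.1). Limits for a count of 0 (3 reads) cover counting error only. No count model was the main test, since the table holds no counts; limma's voom on recovered reads was an alternative.

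Members and lists were chosen with earlier results of these data known. Named genes are the tissue isoforms and partners, the 4 members of smallest p per direction, the 2 highest and 2 lowest in each complex by mean log2 CPM, members with a peak within 1 kb (the 10 of highest score), up to 3 genes of smallest p per list of other pathway genes, and the 5 genes most like Cox6b2. Other members, chosen after their values were seen, are named where a count of them is given. Values of 1 member that the rule would name are not reported here.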

Additional observations from a re-analysis of the deposited data

How the results depend on the processing

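No member passed the threshold under any alternative run; the lowest adjusted p was 0.0564, for Cox8c with limma array weights, a fit that stopped before convergence. At an unadjusted p below 0.05, 2 members in the reported fit became 31 with array weights (4716 genes in all) and 0 to 16 when 1 library was left out. The members' median difference kept its sign under all of them, between -0.24 (without null replicate 2) and -0.08 (without null replicate 3). The count of all genes called, 1 with all libraries, was 3 with no filter, 0 with a mean of at least 2 (limma; 420 genes had an unadjusted p below 0.05, and voom called 1 gene), 2 with quantile normalization, 3 with median centring, 136 with array weights and 0 to 5 when each library was left out in turn (0 without null replicate 1, with 678 genes at an unadjusted p below 0.05, 5 when null replicate 3 was dropped, 2 when wild-type replicate 2 was, and 1 otherwise). Same-numbered libraries did not deviate together (r of -0.09, -0.22 and -0.04), and none correlated best with its own number. With 3 libraries a genotype these r values cannot show whether the numbers pair the libraries. The fit with the replicate block called 2 genes and 0 members. Median centring moved the median of all genes to -0.04 and that of the members to -0.22. Members with a peak, 30 within 10 kb, were 18 within 1 kb, 64 within 50 kb and 14 with a peak in the gene body. Among tested rows the share at 50 kb was 77.8%, against 64.2% of all tested genes, and that in the gene body 17.3%, against 26.2%. Leaving out each library in turn, the difference between genotypes ranged from -0.017 to 0.10 for Cox6b2 against Cox6b1, -0.067 to 0.18 for Cox7b2 against Cox7b, -0.50 to -0.071 for Cox8c against Cox8a and -0.051 to 0.18 for Cox7a1 against Cox7a2. Cox8c itself ranged from -0.68 to -0.25. Of 543 recomputed values of 39 named members 20 changed sign, none of them called. With array weights the values were 0.061 (Atp5a1), 0.059 (Atp5b), 0.048 (Atp5l-ps1), -0.095 (Cox4i2), 0.056 (Cox7a1), 0.0010 (Cox8a) and 0.061 (Ndufs3). Quantile normalization gave 0.028 (Atp5a1), 0.025 (Atp5b) and -0.0068 (Cox4nb), and median centring -0.0021 (Cox4nb). Without 1 library the ranges were -0.076 to 0.013 (Atp5a1), -0.013 to 0.16 (Atp5d), -0.0096 to 0.59 (Cox4i2), -0.017 to 0.12 (Cox4nb), -0.16 to 0.082 (Ndufb2), -0.082 to 0.020 (Ndufs3) and -0.0068 to 0.18 (Uqcrc1). The median of the assembly factors was 0.018 without null replicate 3, an alternative chosen after seeing the data. The cause of these changes was not tested. Lower counts, as for Cox8c and Cox4i2, limit precision.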

Other observations

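Over the 6 libraries the genes whose log2 CPM profile was most like that of the testis isoform Cox6b2 were Gm17642 (Pearson r = 0.971), 4933431K23Rik (0.970), Psmb8, an immunoproteasome subunit (0.966), C1qb, a complement gene of macrophages (0.964), and Gm3906 (0.963). They were taken from 3369 genes with a range of at least 1 log2 unit, the points share library and depth, and no p is given.

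Peaks also lay within 1 kb of the 5′ end of 6 of 13 regulators of mitochondrial genes (Gabpb1, Gabpb2, Nrf1, Tfam, Tfb2m and Yy1). The share was 16.0% over all tested genes and 24.9% in the fifth with the highest log2 CPM. Assembly factors were close to the background, with 5 of 29 (Atpaf1, Foxred1, Ndufab1, Ndufaf1 and Taco1). Complex II and cytochrome c genes gave 0 of 6, and markers of mitochondrial mass and carriers 2 of 10. Tfam, the packaging factor of mitochondrial DNA, differed by -0.07 (SE 0.09) between null and wild-type testes, and by -0.04 without null replicate 3.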
